A study of Rattus norvegicus with 10 samples.

Results

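On 5 of 10 arrays, the tibiae of a single rat differed widely in the RNA of Ckm, troponin-C and some other skeletal muscle genes. Those 5 arrays, here called the split arrays, are described below. Over the 31 other muscle probes tested, the median log2 ratio towards the tibia with more Ckm and troponin-C was only 0.056. Each array compared the treated right tibia of a rat with its own untreated left tibia, with Cy3 on the RNA of one side and Cy5 on that of the other. The split arrays were chosen by measured values: the mean log2 ratio of the probes for Ckm and troponin-C, less the median log2 ratio of the array, lay beyond 1 in size on LOAD 3, LOAD 4, LOAD 5, SHAM 1 and SHAM 2. The size of this value was 3.19 on LOAD 4, 2.79 on LOAD 3, 2.29 on SHAM 2, 2.06 on LOAD 5 and 1.44 on SHAM 1, the array nearest to the limit from inside. On the remaining 5 arrays it was 0.52 on LOAD 2, the nearest from outside, 0.38 on SHAM 3, 0.17 on SHAM 5, 0.14 on SHAM 4 and 0.045 on LOAD 1. All ratios below were turned so that the tibia with more of this pair, the muscle-high tibia, is the numerator and the other, the muscle-low tibia, the denominator. The muscle-high tibia was the control tibia on 4 of the 5 split arrays and the treated tibia on SHAM 2.

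The rats were female Wistar rats of 12 weeks. In the LOAD group the right tibia was bent once by 4-point bending (300 cycles at 2 Hz, peak 60 N), and in the SHAM group it was squeezed without bending. The untreated left tibia of each rat was its contralateral control, and RNA came from the tibial shaft 6 hours after the session. One label field of SHAM 1 names loading, whereas its title and description name sham treatment, and it was counted as SHAM. Each array is a different rat, so n = 5 rats in each set. The limma p-values weigh a mean against the spread between these rats, moderated by the spread of all probes. Arrays were chosen and turned on the same hybridisations, so these p-values describe and do not test.

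Skeletal muscle fibres shorten when myosin pulls on actin, and troponin switches this movement on with calcium. Creatine kinase and glycolytic enzymes of the muscle type refill ATP during contraction. Muscle lies against the tibial shaft, whereas the shaft itself holds osteocytes in mineralised matrix, osteoblasts and lining cells at its surfaces, and blood vessels. In whole-tissue RNA, fewer cells of a type and less RNA per cell cannot be told apart.

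Muscle genes are known to be switched on by myogenic factors that bind E-boxes and by MEF2, and the promoters of 4 muscle genes that were higher together in the muscle-high tibia are shown for this reason. They are RefSeq sequences of build GRCr8, from 250 bases before to 50 bases after the start of the gene, in the direction of transcription. Capitals mark each E-box (CANNTG, the same on both strands) and each MEF2 site. Ckm lies on the plus strand at chr1:88189211-88189510, Myl11 on the plus strand at chr1:191260039-191260338, Pgam2 on the minus strand at chr14:84897825-84898124 and Capn3 on the plus strand at chr3:127861340-127861639.
Ckm: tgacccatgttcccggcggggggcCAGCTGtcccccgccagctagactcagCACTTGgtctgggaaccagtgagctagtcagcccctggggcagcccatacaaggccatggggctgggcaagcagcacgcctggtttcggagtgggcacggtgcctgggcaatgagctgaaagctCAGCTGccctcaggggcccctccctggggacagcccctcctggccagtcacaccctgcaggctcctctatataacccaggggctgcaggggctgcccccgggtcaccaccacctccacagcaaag
Myl11: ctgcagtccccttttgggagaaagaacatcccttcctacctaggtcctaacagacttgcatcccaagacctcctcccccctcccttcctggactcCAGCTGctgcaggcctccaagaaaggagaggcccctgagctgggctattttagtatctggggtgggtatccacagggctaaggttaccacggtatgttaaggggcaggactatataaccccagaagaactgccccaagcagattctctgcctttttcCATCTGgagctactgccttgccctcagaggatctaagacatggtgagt
Pgam2: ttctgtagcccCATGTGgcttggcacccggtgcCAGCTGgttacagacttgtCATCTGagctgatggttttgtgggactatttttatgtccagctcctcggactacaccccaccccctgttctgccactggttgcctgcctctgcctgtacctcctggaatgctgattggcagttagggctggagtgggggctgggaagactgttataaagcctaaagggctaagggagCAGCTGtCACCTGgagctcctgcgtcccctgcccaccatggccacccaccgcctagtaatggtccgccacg
Capn3: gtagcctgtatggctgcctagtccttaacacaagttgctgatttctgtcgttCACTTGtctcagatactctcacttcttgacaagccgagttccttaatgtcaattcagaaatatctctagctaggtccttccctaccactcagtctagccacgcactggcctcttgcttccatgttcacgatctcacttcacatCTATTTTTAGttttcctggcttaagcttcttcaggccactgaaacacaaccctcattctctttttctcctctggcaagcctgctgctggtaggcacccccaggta
The window of Ckm held 3 E-boxes, that of Myl11 2, that of Pgam2 5 and that of Capn3 1. The windows of Mepe, a bone gene, and Fgb, a liver gene, held 5 and 3. Of all 33469 promoters of this length, 72.1% held at least 1 E-box, 38.6% at least 2 and 16.6% at least 3. In all, 12 genes were looked up. The further windows held 1 E-box for Tnni2, 3 for Tnni1, 4 for Cox6a2 and 2 each for Eno3, Maoa and Svs4. Of the 12, only Capn3 and Cox6a2 had a MEF2 site of this strict form in the window, as did 0.565% of all promoters. Such matches describe the letters in the window and not the binding of a factor.

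Ckm, the creatine kinase of muscle, was higher in the muscle-high tibia of all 5 split arrays, as the choice of arrays required. After loess normalization its log2 ratio was 0.95 on SHAM 1, 1.57 on SHAM 2, 2.10 on LOAD 3, 2.56 on LOAD 4 and 1.96 on LOAD 5. For the troponin-C probe, named so in the study's own table, the log2 ratio was 1.94 on SHAM 1, 2.63 on SHAM 2, 3.36 on LOAD 3, 3.80 on LOAD 4 and 2.00 on LOAD 5. Both were largest on LOAD 4 and smallest on SHAM 1, and their means were 1.83 ± 0.60 (SD, n = 5) and 2.75 ± 0.82 (SD, n = 5). Troponin-C had signal in 3 of the 5 muscle-low tibiae and Ckm in all 5. These values chose the arrays and are given as a description.

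Myl11, the regulatory light chain of fast skeletal myosin, had no part in the choice of arrays. Its log2 ratio was 1.60 on SHAM 1, 2.45 on SHAM 2, 2.81 on LOAD 3, 3.85 on LOAD 4 and 1.68 on LOAD 5. The mean was 2.48 ± 0.92 (SD, n = 5), and the order of the arrays was that of troponin-C. Myl11 had signal in all 5 muscle-high but only 3 of the 5 muscle-low tibiae, so the ratios rest in part on a denominator near background, that of LOAD 4 included. On the other arrays the log2 ratio of Myl11 ran from -0.27 on SHAM 5 to 0.36 on SHAM 3, so that no value of the split arrays overlapped with them. Here and for the genes below, the share of all probes without such overlap was not counted. Arrays chosen on muscle probes hold other muscle probes from the same hybridisations, so the values of Myl11 and of the genes below are descriptions of these 5 rats.

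**Figure D1:**
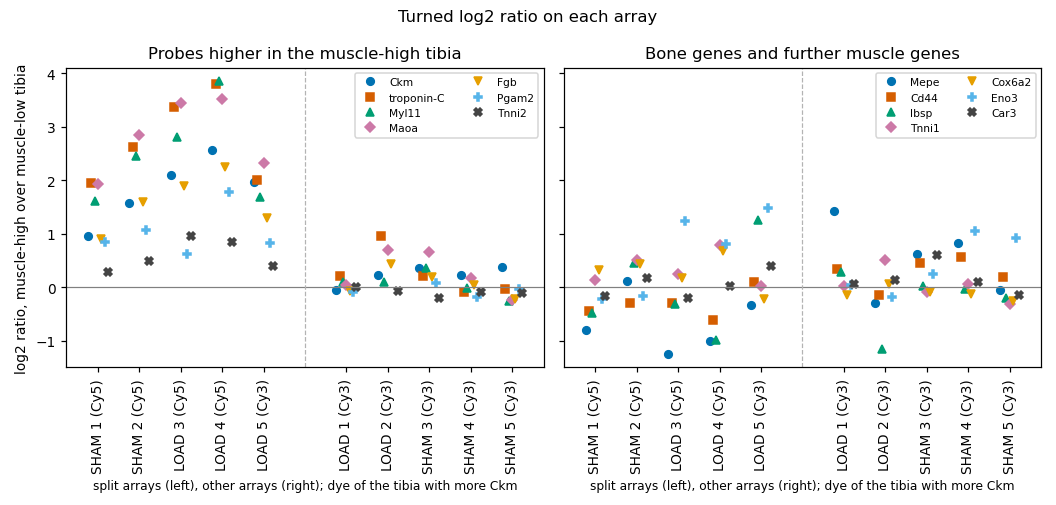
Log2 ratio of the muscle-high over the muscle-low tibia (vertical axis) on each of the 10 arrays (horizontal axis, split arrays left and other arrays right of the dashed line), 1 point per gene and array; the label gives the dye of the tibia with more Ckm. Myl11 lies between 1.60 and 3.85 on the split arrays and between -0.27 and 0.36 on the others, whereas Mepe lies below 0 on 4 of the 5 split arrays.

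Across the whole array, 4746 probes other than the pair were compared with 0 on the split arrays with limma, and 11 were called higher and 0 lower at a false discovery rate under 20%. The background share is 0.232% higher and 0% lower, and nothing is read from the number of members among the calls. At an unadjusted p under 0.05, 100 probes were higher and 101 lower, or 201 against 237.3 by chance. The number called higher was 2 without SHAM 2 and 3 without LOAD 3. Of 4579 probes with a value on all 5 split arrays, 183 were higher and 113 lower on every one. Among the probes tested, the mean ratio was above 1 for 10 and below -1 for 0. In these, 22 probes had a mean above 0.5 and 10 a mean below -0.5, and the median over all probes was 0.0015.

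Of the contraction genes, 5 could be tested, and 4 had a mean above 0. Tnni2, the inhibitory troponin of fast fibres, had log2 ratios of 0.28 on SHAM 1, 0.49 on SHAM 2, 0.96 on LOAD 3, 0.85 on LOAD 4 and 0.39 on LOAD 5 (mean 0.59 ± 0.30, SD). It was above 0 on every split array and below 0 on every other array, from -0.21 on SHAM 3 to -0.0052 on LOAD 1. Tnni1, its slow-fibre counterpart, was above 0 on all 5 split arrays, from 0.024 on LOAD 5 to 0.78 on LOAD 4, with a mean of 0.34 ± 0.31 (SD). Myh3, the embryonic myosin heavy chain, had a mean of 0.14 ± 0.50 (SD) with values on both sides of 0, and Myl3, a light chain of slow and ventricular muscle, had a mean of -0.14 ± 0.21 (SD). The median of the contraction list was 0.34 against 0.0015 over all probes.

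Of the enzymes of muscle energy supply, 5 of 9 tested had a mean above 0, with a median of 0.041. Pgam2, the muscle phosphoglycerate mutase, stood out with log2 ratios of 0.84 on SHAM 1, 1.06 on SHAM 2, 0.62 on LOAD 3, 1.77 on LOAD 4 and 0.82 on LOAD 5. Its mean was 1.02 ± 0.45 (SD). Pgam2 had signal in 4 of the 5 muscle-high and only 1 of the 5 muscle-low tibiae, so most of its ratios are against a spot near background. All 5 values of Pgam2 lay above those of the other arrays with a value, which ran from -0.19 to 0.076.
Eno3, the muscle enolase, was high on LOAD 3 (1.24), LOAD 4 (0.80) and LOAD 5 (1.49) and slightly below 0 on SHAM 1 (-0.21) and SHAM 2 (-0.16). Its 3 high values were those of the LOAD arrays, and its mean on the other arrays was 0.41, so that the sets overlapped. Cox6a2 and Cox8b, muscle forms of cytochrome c oxidase subunits, were above 0 on SHAM 1, SHAM 2, LOAD 3 and LOAD 4 and below 0 on LOAD 5 (-0.23 and -0.25). Car3, the carbonic anhydrase abundant in slow muscle, had a mean of 0.041 ± 0.25 (SD), and Aldoa, the aldolase of muscle and red cells, one of -0.028 ± 0.95 (SD).

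Of the genes of excitation and calcium handling, 9 could be tested and 7 had a mean above 0, with a median of 0.090. Capn3, the calcium-dependent protease of muscle, had log2 ratios of 0.41 on SHAM 1, 0.88 on SHAM 2, 1.21 on LOAD 3, 1.37 on LOAD 4 and 0.46 on LOAD 5, with a mean of 0.87 ± 0.43 (SD). Every value of Capn3 on the split arrays exceeded the highest on the others, 0.077 on LOAD 2. Cacng1, a subunit of the muscle calcium channel, was above 0 on all 5 with a mean of 0.40 ± 0.39 (SD). Scn4a, the sodium channel of muscle, had a mean of 0.26 ± 0.69 (SD), high on LOAD 4 (1.27) and SHAM 2 (0.65) and below 0 on the rest. The acetylcholine receptor subunits Chrng (mean 0.13) and Chrnd (mean -0.029) had values on both sides of 0. The 8 genes of muscle growth and differentiation (3 means above 0, median -0.038) and the 5 of the cardiac forms (3 above 0, median 0.056) included no gene with all 5 values on the same side of 0. Over the 31 tested probes of all muscle lists, 19 means were above 0 and 12 below, with a median of 0.056, and 6 probes were above 0 on all 5 arrays.

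**Figure D2:**
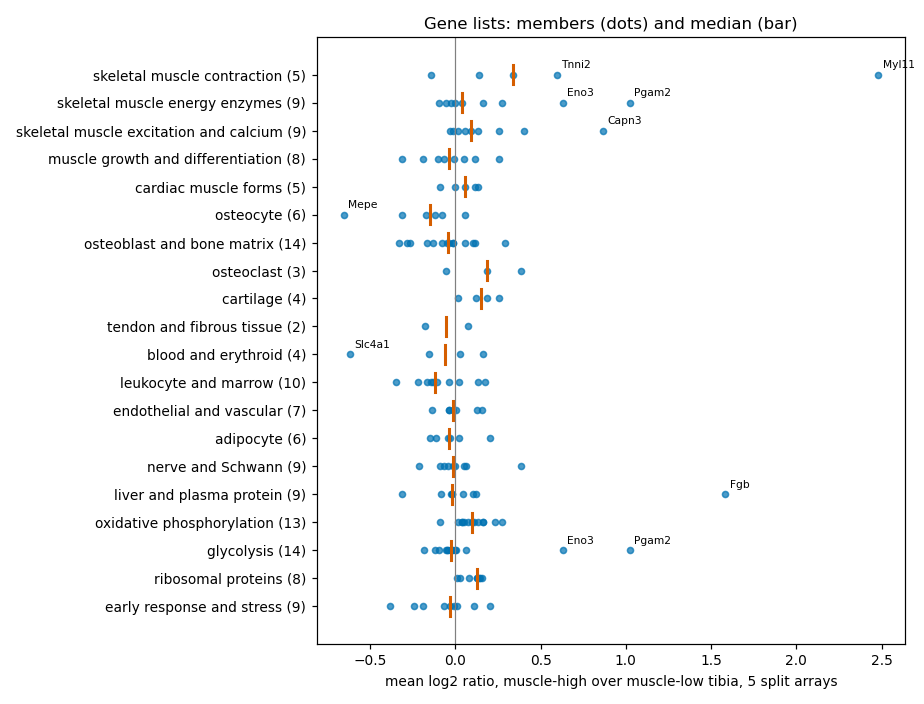
Mean log2 ratio of the muscle-high over the muscle-low tibia on the 5 split arrays (horizontal axis) for the tested members of each gene list (rows, number tested in brackets); dots are genes and the bar is the list median. Myl11 (2.48), Fgb (1.58), Pgam2 (1.02) and Capn3 (0.87) lie far from the rest of their lists, and Mepe (-0.66) is the lowest.

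Several called probes carry the names of genes that are not markers of muscle. The probe named Maoa, monoamine oxidase A, an enzyme that breaks down amine transmitters, had log2 ratios of 1.93 on SHAM 1, 2.84 on SHAM 2, 3.44 on LOAD 3, 3.52 on LOAD 4 and 2.33 on LOAD 5. Its mean of 2.81 ± 0.69 (SD), a 7.02-fold difference, exceeded that of every other named probe. On the other arrays it lay between -0.24 and 0.69, without overlap. The probe named Fgb, the beta chain of the clotting protein fibrinogen, made in liver, had log2 ratios of 0.89 on SHAM 1, 1.60 on SHAM 2, 1.89 on LOAD 3, 2.24 on LOAD 4 and 1.29 on LOAD 5 (mean 1.58 ± 0.52, SD). Its values did not overlap with those of the other arrays either. The gamma chain of the same protein, Fgg, had a mean of 0.045 ± 0.44 (SD) and was listed without signal in all 20 tibiae, and of the 9 liver and plasma protein genes only Fgb was called. The probe named Klc-C, a kinesin light chain of vesicle transport, had a mean of 1.43 ± 0.64 (SD), and Svs4, a secretory protein of the seminal vesicle, one of 1.23 ± 0.45 (SD) in these female rats. Each oligonucleotide of this array type carries a 10% chance of binding another gene in part. Whether the probes named Maoa, Fgb, Klc-C and Svs4 did so cannot be read from the array values, and the RT-PCR that the study ran on its genes is not analysed here. Mepe, Ralgapa1, V2R2B, QFG-TN1, Maoa, Klc-C and Fgb, as well as the pair, were singled out by the study on these arrays, and are therefore no independent choice.

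A further 5 called probes have no gene name in the tables used and are given by their accession in the file. M99223 had log2 ratios of 2.36 on SHAM 1, 2.93 on SHAM 2, 3.13 on LOAD 3 and 2.03 on LOAD 5, and its spot on LOAD 4 was of low confidence. V01224 had a mean of 2.16 ± 0.72 (SD), U04979 one of 1.83 ± 0.60 (SD), AF056324 one of 1.38 ± 0.61 (SD) and M64780 one of 0.69 ± 0.18 (SD). All were above 0 on every split array with a value.

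The named probes most like Ckm were ranked by Pearson r of the log2 ratios of treated over control tibia over all 10 arrays, a description in which the split arrays hold the extreme values. The order was Maoa (0.97), Fgb (0.97), troponin-C (0.97), Myl11 (0.96), Svs4 (0.94), Klc-C (0.93), Pgam2 (0.92), Capn3 (0.91), Tnni2 (0.90) and Slc4a2 (0.83). Of 4706 probes with such a value, 14 exceeded 0.9, or 0.297%. Troponin-C, Myl11, Maoa, Fgb and Capn3 put the 5 split arrays in the same order, LOAD 4, LOAD 3, SHAM 2, LOAD 5 and SHAM 1, whereas Ckm itself placed LOAD 5 before SHAM 2 and Pgam2 placed LOAD 3 last.

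The level in each tibia was taken from the separate dye channels after scaling between arrays, as log2 intensity, in which only tibiae of the same probe can be compared. Ckm was at 9.80 on SHAM 1, 10.33 on SHAM 2, 11.16 on LOAD 3, 11.34 on LOAD 4 and 10.34 on LOAD 5 in the muscle-high tibiae. In the muscle-low tibiae Ckm lay between 8.38 and 9.06, and in the 10 tibiae of the other arrays between 8.36 and 9.55. The muscle-low tibiae thus had Ckm levels within the range of the other rats, and all 5 muscle-high tibiae lay above all 10. Troponin-C had means of 9.86 ± 0.86 (SD), 7.12 ± 0.34 (SD) and 6.71 ± 0.29 (SD) in the muscle-high tibiae, the muscle-low tibiae and the tibiae of the other arrays.

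For Myl11 these levels were 9.86 ± 0.88 (SD, n = 5), 7.38 ± 0.14 (SD, n = 5) and 6.82 ± 0.14 (SD, n = 10). The lowest muscle-low tibia (7.25) lay above the highest tibia of the other arrays (7.08), but these intensities are near background: the probability of signal was 0.14 and 0.44 in the muscle-low tibiae of LOAD 4 and LOAD 5 and reached 0.82 in the other tibiae, so no order of Myl11 is read from them. For Maoa the levels were 11.07 ± 0.80, 8.26 ± 0.22 and 7.91 ± 0.56 (SD), and the muscle-low tibiae overlapped with the other rats. For Fgb they were 11.39 ± 0.53, 9.81 ± 0.13 and 9.75 ± 0.23 (SD), likewise with overlap. All 5 muscle-high tibiae exceeded all 10 tibiae of the other arrays for Myl11, Maoa, Fgb, Pgam2, Svs4, Capn3 and Tnni2. Levels were compared for chosen probes only, and the share of all probes with such a separation was not counted. Summed over the 32 probes of the muscle lists, the intensity was 14.38 to 14.72 in the muscle-high, 14.23 to 14.37 in the muscle-low and 14.19 to 14.30 in the tibiae of the other arrays on the log2 scale.

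**Figure D3:**
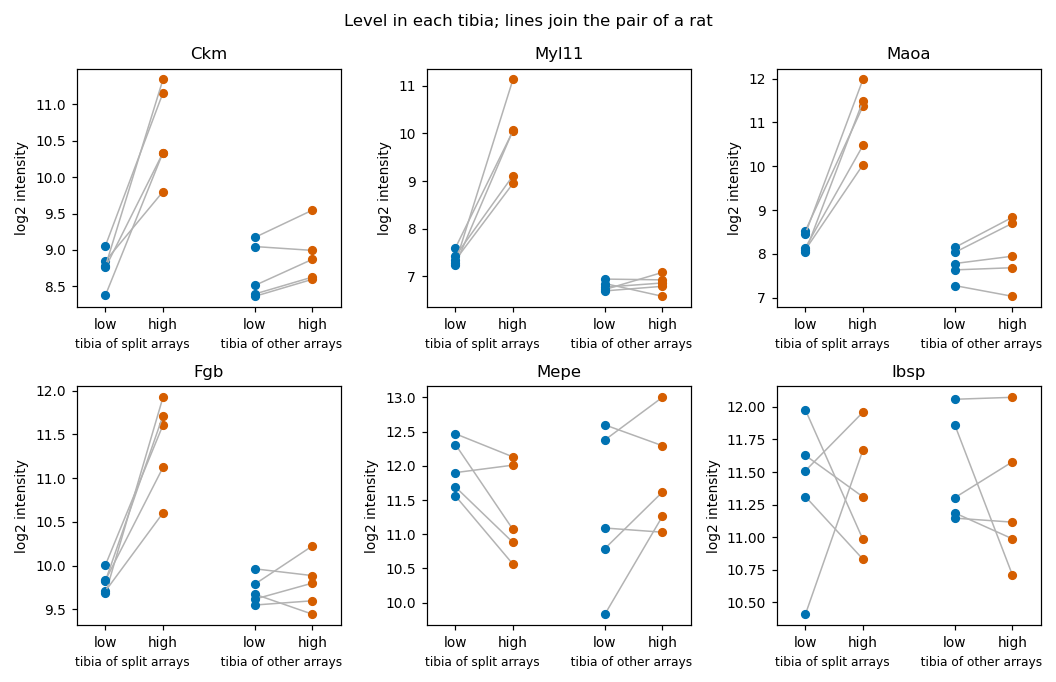
Log2 intensity (vertical axes) of 6 probes in the muscle-low (blue) and muscle-high (orange) tibia of each rat, split arrays left and other arrays right in each panel; a line joins the tibiae of the same rat. The muscle-high tibiae of the split arrays reach 11.34 for Ckm while the other 10 tibiae stay at or below 9.55, and Mepe and Ibsp overlap throughout.

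On the other 5 arrays, turned in the same way, 4758 probes were compared with 0. At a false discovery rate under 20%, limma called 1 higher (0.021%) and 0 lower (0%). An unadjusted p under 0.05 was found for 305, against 237.9 by chance. The called probe, AF064706, was not among the 11 of the split arrays. Its turned ratio followed the dye: Cy3 exceeded Cy5 on all 10 arrays. None of the 11 probes called on the split arrays was called on the other arrays, which was nearly fixed in advance with 1 call there. All of them but M64780 and Pgam2 had a mean above 0 on the other arrays too, as did 52.0% of all probes there. The other arrays were turned by the same muscle pair, so this is a description.

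The difference between the sets was then tested over 4705 probes, with the caution that the sets were defined by muscle probes of the same arrays. Here 13 probes were called higher on the split arrays (0.276%) and 7 lower (0.149%). An unadjusted p under 0.05 was found for 404, against 235.25 by chance. Without LOAD 5 the counts of calls were 28 higher and 34 lower, and without SHAM 2 they were 5 and 0. They were 8 and 0 with scan batch as a block, 9 and 1 with the replicate block and 6 and 0 with a treatment term. The 13 included 10 of the 11 called before, since M99223 had too few values, and Capn3, Tnni2 and U12521. The difference in log2 ratio was 2.55 ± 0.31 (SE) for Maoa (limma adjusted p = 0.014), 2.43 ± 0.36 (SE) for Myl11 (0.031), 1.51 ± 0.23 (SE) for Fgb (0.031) and 0.69 ± 0.14 (SE) for Tnni2 (0.166). The call of Tnni2 was lost with the replicate block (adjusted p = 0.414), the treatment term (0.325) and scan batch as a block (0.242), whereas Maoa, Myl11 and Fgb passed in all 3.

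The dye ran nearly parallel with this division, since the tibia with more of the pair was labelled Cy5 on 4 of the 5 split arrays and Cy3 on all 5 other arrays. A term for dye could only be estimated from LOAD 5 against the rest of the split arrays, so this fit rests on 1 rat. With it, the difference was 2.06 for Maoa, 1.63 for Myl11, 1.22 for Fgb and 0.49 for Tnni2. No calls are read from this fit. On LOAD 5, the only split array with its muscle-high tibia in Cy3, Myl11 (1.68), Maoa (2.33) and Fgb (1.29) lay above the values of all 5 other arrays, which had the same dye. LOAD 5 was itself chosen on muscle probes, so that this is a description. Within the 4 scan batches, each with equal numbers of split and other arrays, the difference for Myl11 was 1.94, 2.46, 3.87 and 1.95. For Maoa it was 2.02, 2.78, 3.35 and 2.57 in the same batches.

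Among the 7 probes called lower between the sets, the only named gene was Fyn, a kinase of cell signalling, with log2 ratios of -0.16, -0.11, -0.0062, -0.21 and -0.20 on SHAM 1, SHAM 2, LOAD 3, LOAD 4 and LOAD 5 and 0.21 to 0.36 on the other arrays. The sets did not overlap for Fyn, but without normalization its difference between them turned to 0.13. Its call was also lost with the treatment term (limma adjusted p = 0.325), the replicate block (0.526) and scan batch as a block (0.382). With the dye term, which rests on LOAD 5, its difference was -0.47. Of these 7, AF064706 and X53725 had a higher Cy3 signal on all 10 arrays. A dye higher on all 10 was found for 49 of 4472 probes. A probe above 0 on every split array could not be among them, since the muscle-high tibia carried Cy3 on LOAD 5 and Cy5 on the rest. That 0 of the 13 called higher were among them was therefore largely fixed in advance.

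**Figure D4:**
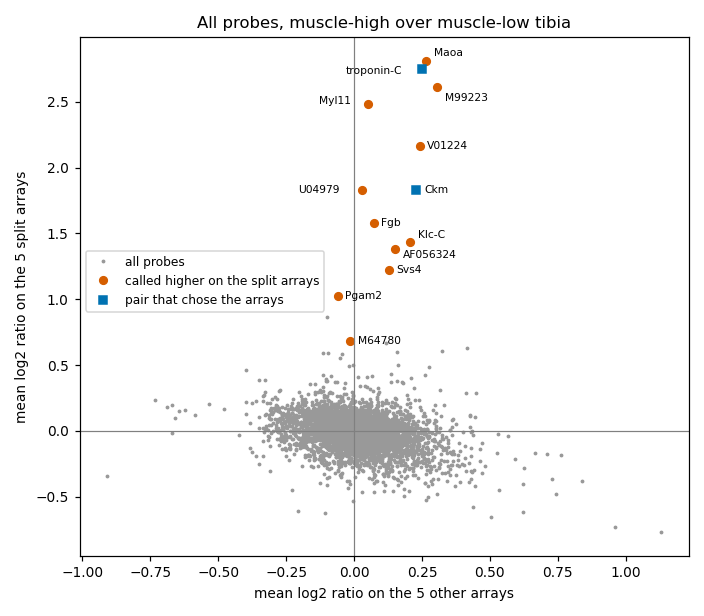
Mean log2 ratio of each probe with at least 4 values on the 5 split arrays (vertical axis) against that on the 5 other arrays (horizontal axis); orange marks the 11 probes called higher on the split arrays and blue squares the pair that chose them. These probes have means of 0.69 to 2.81 on the split arrays and all lie within 0.5 of 0 on the others.

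Genes of bone were not called in either direction. Mepe, a matrix phosphoglycoprotein of osteocytes, had log2 ratios of -0.81 on SHAM 1, 0.11 on SHAM 2, -1.24 on LOAD 3, -0.997 on LOAD 4 and -0.34 on LOAD 5, with a mean of -0.66 ± 0.54 (SD). It was lower in the muscle-high tibia on the 4 arrays where that was the control tibia, and not on SHAM 2, where it was the treated one. Written as treated over control, Mepe was positive on all 5 LOAD arrays, split or not (0.30 to 1.43). On the SHAM arrays it was between -0.83 and 0.81. On LOAD 1, LOAD 3 and LOAD 4, with the treated tibia in Cy3, it was 1.43, 1.24 and 0.997. On LOAD 2 and LOAD 5, with that tibia in Cy5, it was 0.30 and 0.34. The largest SHAM values, 0.81 on SHAM 1, 0.62 on SHAM 3 and -0.83 on SHAM 4, all had Cy3 above Cy5. Treatment, dye and the level of the muscle pair cannot be told apart for Mepe on the split arrays. The difference between the sets was -1.16 (adjusted p = 0.432), and within the scan batches it was -0.91, -1.86, -1.82 and -0.28. Ralgapa1, a regulator of small GTPases, was below 0 on all 5 split arrays with a mean of -0.39 ± 0.28 (SD), though SHAM 2 was at -0.025. V2R2B, a vomeronasal receptor, had a mean of -0.42 ± 0.48 (SD) and QFG-TN1 one of -0.36 ± 0.41 (SD), and both were above 0 on SHAM 2 alone.

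Of the remaining osteocyte genes, Cd44, a receptor for hyaluronan, was below 0 on 4 arrays with a mean of -0.31 ± 0.26 (SD), and Phex, which controls phosphate handling, had a mean of -0.077 ± 0.37 (SD). The genes of osteoblasts and matrix varied widely between rats. Ibsp, bone sialoprotein, ran from -0.99 on LOAD 4 to 1.26 on LOAD 5, and Sparc, osteonectin, from -1.004 on LOAD 4 to 1.89 on LOAD 5. Spp1, osteopontin, had a mean of -0.015 ± 0.44 (SD), and Bmp2, a bone-forming growth factor, one of -0.28 ± 0.32 (SD). In all, 15 of 20 bone probes had a mean below 0 with a median of -0.077. This median turned to 0.029 with the dye term, a fit that rests on LOAD 5, and to 0.016 without LOAD 4. Without normalization it was 0.47, where the median of all probes was 0.51. LOAD 5 was the highest and LOAD 4 the lowest split array for Ibsp, Sparc, Bgn and Fn1, but not for the whole list. Mgp, with the highest mean of the osteoblast and matrix genes (0.29 ± 0.74, SD), was highest on LOAD 4 (1.18) and at -0.42 on LOAD 5. Timp3 was lowest on SHAM 2 (-1.01).

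Blood and marrow genes had values on both sides of 0. Slc4a1, the anion exchanger of red cells, had log2 ratios of -0.90 on SHAM 1, -2.30 on SHAM 2, 1.02 on LOAD 3, -1.61 on LOAD 4 and 0.71 on LOAD 5. It was thus high on 2 of the split arrays and low on 3, and its mean of -0.62 ± 1.45 (SD) had the widest spread of the listed genes. Alas2, which starts haem synthesis in red cells, was highest on LOAD 5 (1.24) and lowest on SHAM 2 (-0.63). Lyz2, lysozyme of myeloid cells, was high on LOAD 5 (1.32) and below 0 on the other split arrays. The 10 leukocyte and marrow genes had 7 means below 0 and a median of -0.12, and their summed log2 intensity overlapped between muscle-high (14.10 to 15.40) and muscle-low tibiae (13.17 to 15.71). For the 4 erythroid genes it was 13.45 to 13.96 and 12.67 to 14.27. Their part in the muscle difference was not tested.

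No gene of cartilage, fibrous tissue, nerve or vessels was called. The 4 cartilage genes all had means above 0, of which Chad, a matrix protein of cartilage, was above 0 on all 5 with a mean of 0.26 ± 0.21 (SD), at signal in 2 of 20 tibiae. Thy1 and S100a4, which mark fibroblasts of fibrous tissue, had means of -0.18 and 0.073. In nerve, S100b had a mean of 0.38 ± 0.28 (SD) over 4 arrays, while Mbp, a protein of the myelin sheath, had a mean of -0.21. Edn1, the vessel peptide endothelin, was above 0 on all 5 with a mean of 0.16 ± 0.076 (SD), and Slc4a2, an anion exchanger that osteoclasts use, likewise with a mean of 0.19 ± 0.10 (SD).

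For oxidative phosphorylation 12 of 13 means were above 0 with a median of 0.095, and for ribosomal proteins 8 of 8 with a median of 0.13, against 50.5% of all probes. With the dye term these counts were 8 of 13 and 6 of 8. No member of either list was called. For glycolysis 4 of 14 means were above 0, and Pgam2 and Eno3 are the muscle forms.

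Outside the lists, 12 named genes above 0 and 12 below 0 on all 5 split arrays with the largest means were taken. After Svs4, the next higher were Kcnj8 (0.59 ± 0.29, SD), a potassium channel of vascular and striated muscle, Pccb (0.36), a propionyl-CoA carboxylase subunit with signal in 0 of 20 tibiae, and Selenow (0.35 ± 0.17, SD), a selenoprotein abundant in muscle. Among the lower genes, Slc2a3, a glucose transporter, had a mean of -0.48 ± 0.34 (SD), Plvap, an endothelial protein, one of -0.40 ± 0.25 (SD) and Mxi1, a repressor that opposes Myc, one of -0.22 ± 0.099 (SD). Hcrtr2, the orexin receptor, had a mean of -0.62 that rested on SHAM 2 (-2.53), the remaining values being -0.25 to -0.033. Of the 12 lower genes, 9 had signal in 8 or fewer of the 20 tibiae, and of the 12 higher genes 6 did. None but Svs4 was called.

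Technical measures of the sets were compared by exact two-sided permutation over the 252 divisions of 10 arrays into sets of 5. The number of low-confidence spots was 62.8 ± 58.2 (SD) on the split and 48.8 ± 12 (SD) on the other arrays (exact p = 0.944), with 166 on LOAD 4. The share of spots with signal in both dyes was 68.0% ± 11.6 against 70.3% ± 5.01 (SD, exact p = 0.690), and median log2 intensity 8.16 ± 0.42 against 8.12 ± 0.78 (SD, exact p = 0.968). The log2 dye balance, Cy5 over Cy3, was 0.44 ± 0.42 against -0.0078 ± 0.90 (SD, exact p = 0.317). By array median before normalization, the dye of the muscle-high tibia was the brighter on all 5 split arrays. Among the other arrays it was the brighter on LOAD 1, LOAD 2 and SHAM 4, and not on SHAM 3 and SHAM 5. The SD of the log2 ratio over probes outside the muscle lists was 0.32 ± 0.082 against 0.27 ± 0.098 (SD, exact p = 0.397). Adjusted over these 5 measures, every p was 0.968. With 5 arrays in a set, differences smaller than these spreads could not be detected. Without LOAD 4 the number of low-confidence spots differed by -11.8, so that its direction rested on that array.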

How the data were processed

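RNA of the treated and control tibia of each of 10 rats was hybridised to a spotted oligonucleotide array with 4803 accessions. The authors quantified spots with BlueFuse (2.0 in the file headers, 3.0 in the study's methods) and deposited the intensity of each dye, with a spot confidence and a probability of signal, each a fraction. The deposited value table holds log2 ratios without normalization, within 0.001 of those of the intensities. Spots with a confidence under 0.11 were set missing, and 1 missing array per set was allowed. Ratios were normalized by loess within arrays (span 0.3, 4 iterations) and turned towards the tibia with more Ckm and troponin-C. limma 3.58.1 in R 4.3.3 compared them with 0 within the split and the other arrays, and between these sets, with Benjamini-Hochberg adjustment over all probes and calls at 20%. Signal in a tibia means a probability of at least 0.5. Tibia levels were scaled between arrays (Aquantile). Names came from RefSeq for 1177 accessions and from the study's table for 7, leaving 3619 unnamed. Named genes are those the study names, the members of each list with the largest mean ratios (up to 8 in muscle lists and 4 in others), the 12 highest and 12 lowest outside the lists with the same sign on all 5 split arrays, and the 10 most like Ckm; other names were chosen after their values were seen. The members and gene lists were chosen with earlier results of these data known. The script was tested on simulated data. The alternatives covered normalization, filters, offset, dye, treatment, scan batch, replicate number and each array left out. For arrays, the number of rats limits the precision.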

Additional observations from a re-analysis of the deposited data

Results flagged for a closer look

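In sets of 5 arrays, a value was singled out where its gap to the nearest other value, divided by the range, exceeded 0.71. Over 53 genes and measures in each set, 8 values did so, and chance gives about 1 in 20 groups. On the split arrays, Cox8b was -0.25 on LOAD 5, with the rest at 0.21 to 0.33. AF064706 was 1.05 on LOAD 5 against -1.56 to -0.91, and X53725 was 0.80 on LOAD 5 against -1.28 to -0.80. LOAD 5 is the split array whose muscle-high tibia was labelled Cy3, and Cy3 exceeded Cy5 for both AF064706 and X53725 on all 10 arrays. LOAD 4 had 166 low-confidence spots against 32 to 50. On the other arrays, LOAD 2 stood apart for Klc-C (0.73 against -0.031 to 0.17), Chad (0.79 against -0.27 to 0.033) and Atp5mc1 (-0.57 against -0.080 to 0.027). U04979 was 0.38 on SHAM 3 against -0.10 to 0.012. LOAD 2 was also the array nearest to the limit from outside.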

How the results depend on the processing

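The count called higher on the split arrays (11) was 4181 without normalization, 30 with a dye term over all arrays, 21 with the spread taken from all 10 arrays, 6 with an intensity trend and robust prior, 5 on the LOAD arrays alone and 2 with a dye term from the split arrays alone, a setting chosen after seeing the data. Leaving out an array gave 2 (without SHAM 2) to 16 (without LOAD 5). The count lower (0) was 3 with median centring, 2 without normalization, 8 with the dye term, 2 with the spread of all arrays, and 0 to 7 with an array left out (7 without LOAD 5). On the other arrays the single call was lost (0) with median centring, no normalization, no confidence filter, a confidence of at least 0.15, an offset of 50, the signal filter, turning by Myl11 and the intensity trend, and ranged from 0 to 2 with an array left out. Between the sets, the count higher (13) was 7 without normalization, 114 with the dye term (1 shared), 6 with a treatment term, 5 with the intensity trend, 8 with scan batch as a block, and 5 to 28 with an array left out. The count lower (7) was 4 with median centring, 0 without normalization, 2 with an offset of 50, 3 with the signal filter, 0 with turning by Myl11, 45 with the dye term (0 shared), 0 with a treatment term, 0 with the intensity trend, 0 with scan batch as a block, and 0 to 34 with an array left out. Between same-numbered arrays r ran from -0.41 to 0.47. Such arrays share a scan batch, and whether the numbers pair the samples further cannot be read from these values. With the replicate block 9 were higher and 1 lower. The muscle-list median (0.056) was 0.17 with median centring, 0.66 without normalization, where the median of all probes was 0.51, 0.16 with the signal filter, and 0.0067 to 0.12 with an array left out. The bone-list median (-0.077) was 0.47 without normalization and -0.22 to 0.016 with an array left out. The difference of Fyn between the sets turned to 0.13 without normalization. With an array left out, the difference in low-confidence spots ran from -11.8 to 21.7, in percent of spots with signal from -5.76 to 1.53, in median log2 intensity from -0.25 to 0.28, in dye balance from 0.25 to 0.74 and in the SD of log2 ratios from 0.017 to 0.085. The fits with a dye term rest on LOAD 5, so nothing is read from their counts. The cause of these changes was not tested.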
